A study of Mus musculus with 4 samples.

Results

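Gamma-delta (γδ) T cells without a transcript of Gzmc, a granzyme, or of Xcl1, a chemokine, were selected from single-cell RNA data of 4 mouse mammary tumours. A barcode was kept when it held at least 1 UMI (unique molecular identifier, 1 captured transcript) of Cd3d, Cd3e or Cd3g and at least 1 of Trdc, with 0 UMIs of Cd4, Cd8b1, Foxp3, Gzmc and Xcl1, under 2 of Mki67 and Top2a and under 3 of Lyz2. Of 14555 called barcodes, 369 met this rule, and they are called the selected γδ cells here. Another 451 barcodes passed the same gate but held a Gzmc or Xcl1 UMI. A further 5337 held Cd3 without Trdc, under the same limits on Mki67, Top2a and Lyz2 and with no limit on the other genes. These classes are called the Gzmc/Xcl1-positive γδ cells and the Trdc-negative T cells. The rule used measured counts, so the levels of its own genes, and levels between these classes, are given as a description without a test.

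The tumours grew from HER2+ H605 mammary tumour cells, which were injected into the mammary pad of mice of the FVB/NJ strain. Hosts were either WT or IL1α-/-, 2 of each, and were 6 to 8 weeks old by a label field that is named for the cell type. All hosts received the same line, so the deletion belonged to the mouse around the tumour rather than to the injected line, and no label limits it to a host cell type. The tumours were taken at day 14, in 2 pairs on separate days, dissociated with collagenase IV and hyaluronidase, cleared of red cells and enriched for live cells before 10x 3′ v3.1 libraries were made. The series title asks what interleukin 1α from the host does in the tumour; the comparison here is between hosts within the selected γδ cells.

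T cells with a γδ receptor carry a δ chain, whose constant part is encoded by Trdc, and a γ chain built on one of a few constant genes. In mice, γδ T cells commit in the thymus to making interleukin 17, with factors such as Sox13, or to a type 1 programme with interferon γ and cytotoxic genes. Cells of the interleukin 17 kind settle in skin, mucosa and adipose tissue and respond to interleukin 1 and interleukin 23 without a peptide antigen. The constant genes are among the few sequences that separate the receptor families in 3′ counts, so the start of each is shown.

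The lines below give the first 60 bases of the coding sequence of the 3 γ constant genes, 5′ to 3′, from exon 1 in GRCm38 (GENCODE vM21), at chr13:19214103-19214162 on the plus strand for Tcrg-C1, chr13:19307492-19307551 on the minus strand for Tcrg-C2 and chr13:19344558-19344617 on the plus strand for Tcrg-C4. Capitals mark the 11 bases that are not the same in all 3 genes.
Tcrg-C1: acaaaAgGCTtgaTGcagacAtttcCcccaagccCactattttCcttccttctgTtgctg
Tcrg-C2: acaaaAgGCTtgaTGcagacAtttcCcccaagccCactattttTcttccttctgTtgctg
Tcrg-C4: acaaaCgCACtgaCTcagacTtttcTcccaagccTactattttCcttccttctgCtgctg
Over the 330 bases of this exon, Tcrg-C1 and Tcrg-C2 were 97.3% identical, with 9 differences. Tcrg-C4 was 82.1% identical to Tcrg-C1 and 81.5% to Tcrg-C2, with 59 and 61 differences. Over the transcribed bases after the stop codon, where 3′ reads mostly fall, Tcrg-C1 and Tcrg-C2 were 93.5% identical, and Tcrg-C4 was 55.2% identical to Tcrg-C1 and 55.4% to Tcrg-C2. How reads were split between Tcrg-C1 and Tcrg-C2 is uncertain.

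The libraries held 6705368 to 29001333 UMIs, and the median called barcode held 3143 UMIs in WT 1, 4209.5 in WT 2, 1361 in IL1α-/- 1 and 2902 in IL1α-/- 2. Il1a (chr2:129299610-129309972) checked the labels: it had 67 and 112 UMIs in the called barcodes of the WT hosts, and 1 and 0 in those of the IL1α-/- hosts. No selected γδ cell held an Il1a UMI in any host, where 0 of 369 cells allows a share of up to 0.813%. A total of 13 called barcodes occurred in more than 1 library, none of them a selected γδ cell. Intervals and such limits cover counting error only. No label says more about how the replicates relate, so p-values measure the spread between these 4 tumours alone.

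The selected γδ cells numbered 82 in WT 1, 110 in WT 2, 67 in IL1α-/- 1 and 110 in IL1α-/- 2. Their median depth followed the libraries, at 2649.5, 3598, 1177 and 2572 UMIs in that order. The rule sat close to many cells: 119 of the 369 (32.2%) held exactly 1 Trdc UMI and 72 (19.5%) exactly 1 Cd3 UMI. Just outside it, 129 barcodes of the same gate held exactly 1 UMI of Gzmc or Xcl1, and 13 were left out for a single UMI of Cd4, Cd8b1 or Foxp3.

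The selected γδ cells made up a few percent of called barcodes in every tumour. They were 2.05% of called barcodes in WT 1 (95% exact Clopper-Pearson interval 1.63 to 2.54), 2.75% in WT 2 (2.26 to 3.30), 2.09% in IL1α-/- 1 (1.62 to 2.64) and 3.30% in IL1α-/- 2 (2.72 to 3.96). The 2 groups overlapped, with a mean difference of 0.294 percentage points (2-sided exact permutation p = 0.667; the smallest p that 4 tumours allow is 0.33). Of barcodes with a Cd3 UMI they were 5.18%, 6.52%, 3.85% and 5.51%, again overlapping, with a difference of -1.17 points (2-sided exact permutation p = 0.667). With every barcode thinned to 1000 UMIs before gating, the share of called barcodes differed by -0.326 points in place of 0.294. The thinned share of Cd3 barcodes was 7.49% and 6.48% in the WT tumours and 3.16% and 4.92% in the IL1α-/- tumours, which no longer overlapped. Neither share can be called at 2 tumours a group.

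Within the γδ gate, the split between cells lacking and cells holding Gzmc or Xcl1 differed between hosts on all UMIs. The difference was smaller after thinning. Cells lacking both genes were 32.2% of the gate in WT 1 (26.5 to 38.3), 37.0% in WT 2 (31.5 to 42.8), 71.3% in IL1α-/- 1 (61.0 to 80.1) and 63.2% in IL1α-/- 2 (55.6 to 70.4). The WT mean was 34.6% ± 3.45 (SD, n = 2) and the IL1α-/- mean 67.2% ± 5.70 (SD, n = 2). The groups did not overlap, and the differences within same-numbered tumours, assumed to be pairs, were 39.1 and 26.2 points. No p is given, because the split was made on Gzmc and Xcl1, which the rule used. After thinning to 1000 UMIs the shares were 64.0%, 64.2%, 68.4% and 80.4%, and the mean difference fell from 32.7 to 10.3 points. Thinning removes Gzmc and Xcl1 UMIs in every tumour, so this fall does not measure the part of depth, which was not tested. WT 1 and IL1α-/- 2, with medians of 3143 and 2902 UMIs per called barcode, had 32.2% and 63.2% on all UMIs. This sets 1 tumour against 1, so nothing about depth is read from it. The number of Gzmc/Xcl1-positive γδ cells was 173 and 187 in the WT tumours against 27 and 64 in the IL1α-/- tumours. Xcl1 itself, a lymphocyte chemokine for cross-presenting dendritic cells, was found in 1003 and 1004 called barcodes of all kinds in the WT tumours and in 345 and 309 in the IL1α-/- tumours. A cell enters the selected set by showing no UMI of a gene that was rarer throughout the IL1α-/- tumours, and the part of this in the split was not tested.

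**Figure D1:**
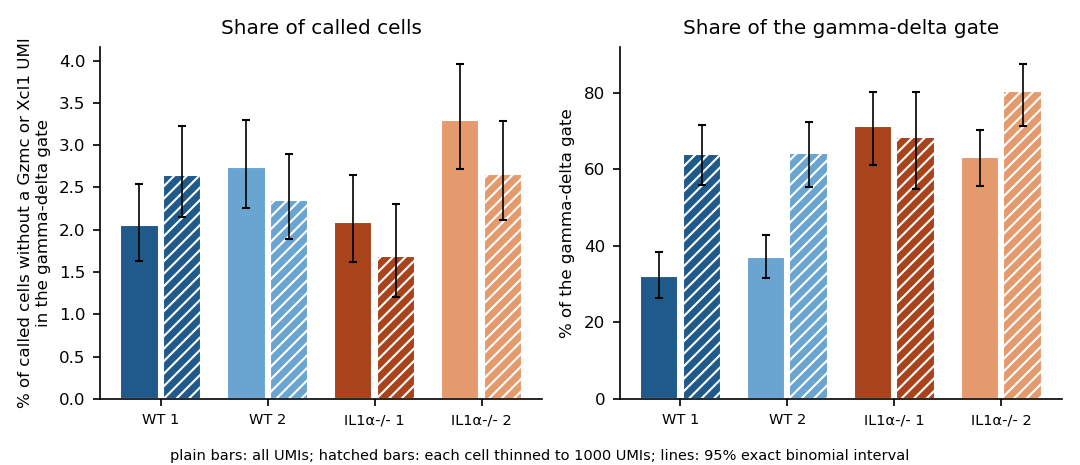
Selected γδ cells in each of the 4 tumours, as a percentage of called barcodes (left) and of the γδ gate (right); plain bars use all UMIs, hatched bars use barcodes thinned to 1000 UMIs, and lines are 95% exact binomial intervals. The share of called barcodes overlaps between hosts, and in the γδ gate the plain bars run from 32.2% to 71.3% while the hatched bars run from 64.0% to 80.4%.

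The label of γδ T cells was checked on receptor genes that the rule did not use. At least 1 γ constant gene was detected in 64.6%, 58.2%, 52.2% and 71.8% of the selected γδ cells (WT 1, WT 2, IL1α-/- 1, IL1α-/- 2). By number of γ constant genes, 138 cells had none, 139 had 1, 76 had 2 and 16 had all 3. Among 1231 phagocytes, set by at least 3 Lyz2 UMIs and no Cd3 UMI, 0.650% held Trdc and 0.0812% held a γ constant gene, at a median depth of 4183 UMIs. In barcodes of up to 100 UMIs, which hold mainly free RNA, Trdc had 34.2, 63.9, 48.4 and 36.8 CPM and Tcrg-C4 8.81, 15.3, 8.07 and 21.2 CPM. Natural killer cells were a closer neighbour: of 2100 barcodes with Ncr1, a natural killer receptor, and no Cd3 UMI, 34.2% held Trdc and 6.38% a γ constant gene.

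Tcrg-C1 was detected in 138 selected γδ cells (37.4%), Tcrg-C4 in 108 (29.3%) and Tcrg-C2 in 93 (25.2%). Tcrg-C4 (chr13:19344558-19352756) had 182, 135, 222 and 183 CPM (UMIs of the gene per 1000000 UMIs of the summed cells), against 16.6, 10.8, 7.1 and 5.2 CPM in the Trdc-negative T cells. It was as high in the Gzmc/Xcl1-positive γδ cells, at 153, 138, 268 and 180 CPM, so it marked the whole gate. Of the variable genes, Trgv2 was found in 90 cells, Trdv4 in 43, Tcrg-V1 in 23, Tcrg-V6 in 18 and Tcrg-V4 in 15, while Tcrg-V5 and Tcrg-V7, of the epidermal and gut epithelial γδ families, were found in 1 cell each. Trdv4 occurred with Tcrg-C1 in 37 of its 43 cells, and Tcrg-V6 with Tcrg-C1 in 16 of its 18. Tcrg-V1 occurred with Tcrg-C4 in 17 of 23 cells. Tcrg-V4 had no clear partner, with Tcrg-C2 in 10 of its 15 cells, Tcrg-C4 in 9 and Tcrg-C1 in 5.

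Genes of the αβ receptor were uneven. Trac, the α constant gene, was found in 34 selected γδ cells (9.2%), at 45.4, 42.8, 23.3 and 43.3 CPM, well below its 439, 431, 454 and 501 CPM in the Trdc-negative T cells. Trbc1 and Trbc2, the β constant genes, were found in 232 (62.9%) and 238 (64.5%) cells. β constant transcripts were also present in 87.6% of the Ncr1 barcodes without Cd3, so they did not separate T cells from natural killer cells here. Cd8a was found in 2 cells.

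Satb1, a chromatin organiser of thymocytes and T cells, and Gpr183, the receptor for oxysterols that guides lymphocyte migration, were the other markers given for these cells. Satb1 (chr17:51736187-51833290) was detected in 228 cells (61.8%) and Gpr183 (chr14:121952551-121965195) in 120 (32.5%). Satb1 had 400, 315, 805 and 629 CPM, against 258, 227, 463 and 869 CPM in the Gzmc/Xcl1-positive γδ cells. Gpr183 had 198, 128, 268 and 346 CPM, against 86.5, 60.3, 219 and 168 CPM there. Gpr183 was the higher in the selected γδ cells of each tumour, while Satb1 was so in 3 of 4.

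Markers of other cell types were present at various levels. All 4 red cell genes, the B cell genes Cd79a and Ms4a1, the phagocyte genes Csf1r and Adgre1 and the neutrophil genes S100a8 and S100a9 were at 0. Other genes of these lists were not: Ighm, of the B cell list, was found in 73 selected γδ cells (19.8%), Cd74, of the phagocyte list, in 31 and Lyz2 in 10. The B cell list summed to 70.2, 144, 163 and 76.5 CPM, the phagocyte list to 37.1, 200.3, 70.0 and 43.3 CPM and the plasmacytoid dendritic list to 28.9, 257, 58.4 and 93.2 CPM, with 38 Ly6d UMIs in 2 cells of WT 2. The 6 fibroblast genes summed to 37.1, 54.0, 35.0 and 2333 CPM, and the 9 tumour epithelium genes to 74.3, 790, 0 and 3.33 CPM. Only 5 selected γδ cells (1, 2, 0 and 2 per tumour) held 3 or more UMIs of the commonest fibroblast or epithelial genes, with a median of 10408 UMIs, and a single IL1α-/- 2 barcode held 127 of all 209 Col1a2 UMIs. Natural killer genes were present throughout, the 11 of that list summing to 1713, 3524, 2124 and 1634 CPM.

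The selected γδ cells divided into subsets by genes outside the rule. Cells with at least 1 UMI of Il17a, Il17f, Il23r, Blk, Cd163l1, 5830411N06Rik or Ccr6, genes of interleukin 17-producing γδ cells, numbered 76 (20.6%). Cells with Eomes, a T-box factor of natural killer and memory cells, or Ncr1, and with none of those 7 genes, numbered 138 (37.4%). The remaining 155 (42.0%) had neither. No cell held both a type 17 gene and Eomes or Ncr1, where 0 of 76 cells allows a share of up to 3.95%.

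**Figure D2:**
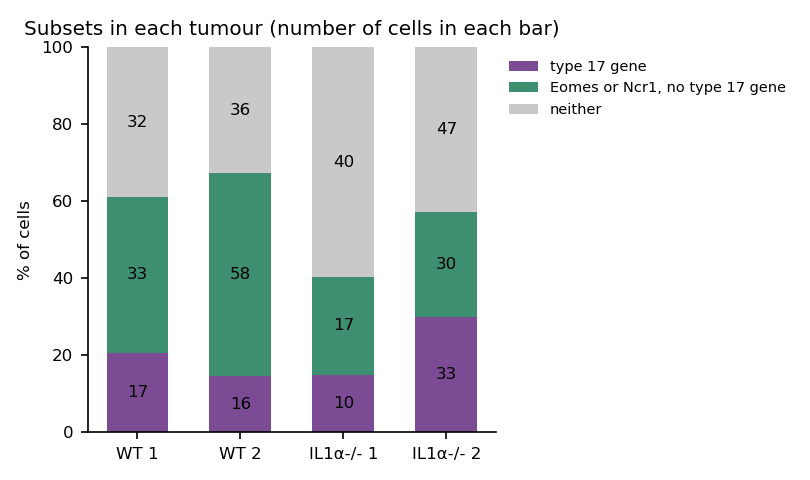
Percentage of the selected γδ cells of each tumour with a type 17 gene, with Eomes or Ncr1 and no type 17 gene, or with neither; the number in each segment is the number of cells. The Eomes or Ncr1 segment takes 40.2% and 52.7% in the WT tumours and 25.4% and 27.3% in the IL1α-/- tumours.

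In the type 17 subset, the scavenger receptor gene Cd163l1 was found in 59 of 76 cells, the kinase gene Blk in 41, the cytokine gene Il17a in 23 and Il23r, a receptor of the interleukin 23 pathway, in 15. Genes that did not define the subset split the same way. Maf, a factor of interleukin 17 γδ development, was found in 56 of the 76 cells against 29 of the other 293. Tmem176a and Tmem176b, a pair of ion channel genes, were found in 60 and 58 against 9 and 16. Sox13 was found in 14 against 0, where 0 of 293 allows up to 1.02%. Il7r, the interleukin 7 receptor, was found in 92.1% against 34.8%, and the costimulatory gene Icos in 72.4% against 16.7%. The growth factor receptor gene Igf1r, singled out after its values were seen, was found in 45 against 10 cells.

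The receptor of interleukin 1 was almost confined to this subset. Il1r1 (chr1:40225080-40317257) was detected in 28 of the 76 type 17 cells and in 1 of the other 293. Per tumour, it was found in 17.6%, 50.0%, 40.0% and 39.4% of the type 17 cells, which are 17, 16, 10 and 33 cells, so the WT and IL1α-/- values overlapped. Il1r2, the decoy receptor, and the ligand genes Il1a, Il1b, Il18 and Il33 were at 0 in all 369 cells. Il18r1, a receptor gene of the related cytokine interleukin 18, was found in 57 type 17 cells and 119 others.

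The γδ receptor differed between the subsets too. Tcrg-C1 was found in 84.2% of type 17 cells against 25.3% of the others, at 88.2%, 93.8%, 70.0% and 81.8% against 29.2%, 21.3%, 19.3% and 31.2% in the 4 tumours. Trdv4, the δ variable gene of the invariant Vγ6 cells of mouse mucosa and dermis, was found in 38 of 76 against 5 of 293, and Tcrg-V6 in 15 against 3. Tcrg-C4 ran the other way, in 19.7% of type 17 cells and 31.7% of the others, as did Tcrg-C2, in 17.1% and 27.3%. Trgv2 hardly differed, at 25.0% and 24.2%.

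Cytotoxic genes were found mainly in cells outside the type 17 subset. The chemokine gene Ccl5 was found in 77.1% of them and in 7.89% of type 17 cells, and the granule gene Nkg7 in 77.5% and 6.58%. Ccr7, a lymph node homing receptor, was found in 46 of 293 against 1 of 76, and Cd27, a costimulatory receptor of interferon γ-type γδ cells, in 115 against 2. Satb1 was found in 70.6% against 27.6%, while Gpr183 was the more frequent in type 17 cells, at 60.5% against 25.3%. The 2 markers of the label thus lay mainly on different cells. Median depth was 2253.5 UMIs in the type 17 subset and 2739 in the others.

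**Figure D3:**
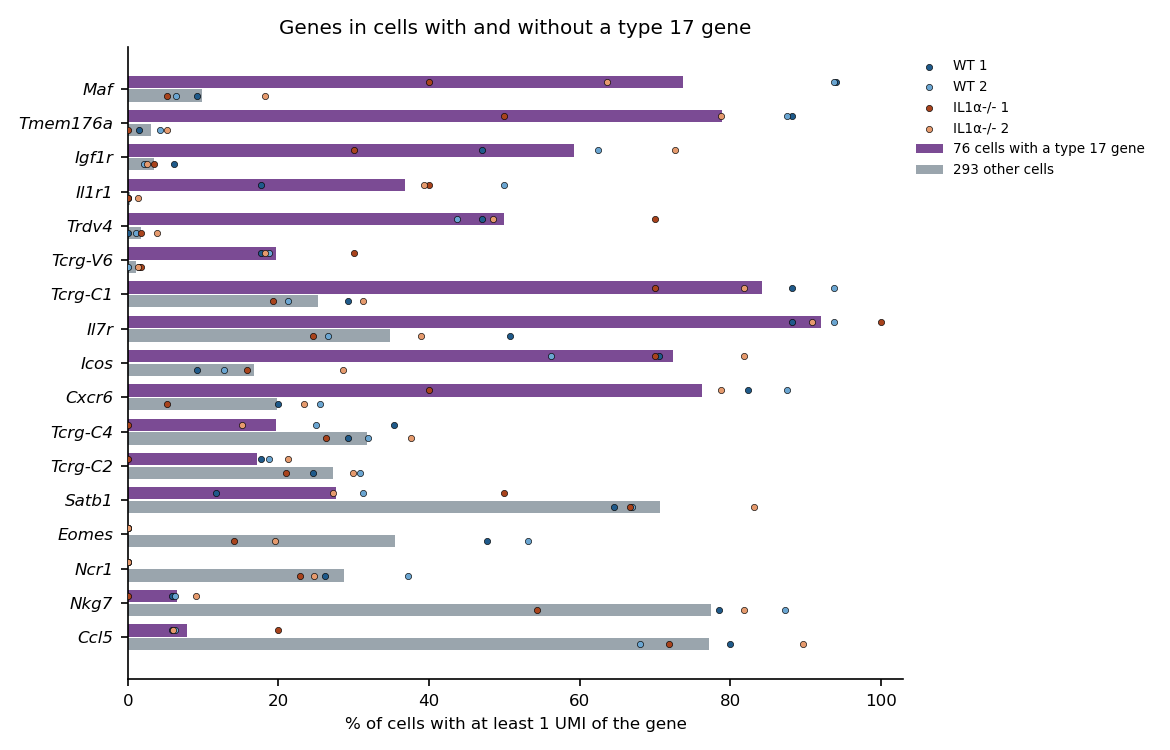
Percentage of selected γδ cells with at least 1 UMI of each gene, for the 76 cells with a type 17 gene (purple bars) and the 293 others (grey bars); points are the same percentages in each of the 4 tumours. Maf, Il1r1, Trdv4 and Tcrg-C1 lie to the right in the type 17 cells and Eomes, Nkg7 and Ccl5 in the others.

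A γ constant gene was found in 49.3% of the subset with Eomes or Ncr1, against 89.5% of the type 17 subset and 61.3% of the cells with neither. The Cd3 genes, which the rule used, did not order the subsets alike: Cd3e was found in 47.8%, 81.6% and 80.6%, Cd3g in 73.2%, 86.8% and 66.5% and Cd3d in 68.8%, 78.9% and 71.6%, in that order of subsets. In Ncr1 barcodes without Cd3 a γ constant gene was found in 6.38%, but the 2 sets are not alike. The rule required Trdc and Cd3 of every selected cell, while Trdc was found in 34.2% of those barcodes. The median depth of the subset with Eomes or Ncr1, 3221.5 UMIs, was the highest of the 3 subsets. How many barcodes of this subset are natural killer cells with a stray Cd3 UMI was not tested.

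Shares of these states were compared between hosts on all UMIs and at equal depth. For the latter, cells gated on all UMIs were thinned to 1000 UMIs, which left out the shallower 1, 3, 24 and 4 selected γδ cells of the 4 tumours, 24 of 67 in IL1α-/- 1. A type 17 gene was found in 20.7%, 14.5%, 14.9% and 30.0% of the selected γδ cells (2-sided exact permutation p = 0.667 over the 4 tumours). The groups overlapped, with a difference of -5.81 points in the first pair and 15.5 in the second; the thinned shares were 18.5%, 13.1%, 13.95% and 28.3%. A circulation gene (Ccr7, S1pr1 or Lef1) was found in 52.4%, 52.7%, 28.4% and 40.0% (2-sided exact permutation p = 0.33). Those groups did not overlap, but the thinned shares, 33.3%, 24.3%, 32.6% and 21.7%, did. An αβ constant gene was found in 93.9%, 93.6%, 71.6% and 86.4% (2-sided exact permutation p = 0.33), and in 79.0%, 72.9%, 76.7% and 61.3% after thinning, which overlapped. Eomes or Ncr1, at 40.2%, 52.7%, 25.4% and 27.3% before thinning, was found in 22.2%, 33.6%, 25.6% and 16.98% after it, which overlapped too.

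Of 13 genes or gene sets outside the rule that were thinned, 6 did not overlap between hosts afterwards, and 3 of these, Eomes, Satb1 and Trdv4, did not overlap before thinning either. At 1000 UMIs a cell, Eomes was found in 18.5% and 18.7% of the selected γδ cells of WT tumours and in 9.30% and 9.43% of those of IL1α-/- tumours. Satb1 was found in 28.4% and 22.4% against 55.8% and 41.5%, and Trdv4 in 6.17% and 1.87% against 11.6% and 12.3%. Satb1 was also apart in the Gzmc/Xcl1-positive γδ cells thinned alike, at 24.3% and 21.4% against 44.0% and 59.4%. Eomes overlapped between hosts in that class. Trdv4 was too rare there to compare, found in 1, 0, 0 and 0 thinned cells. In the selected γδ cells its thinned shares rest on 5, 2, 5 and 13 cells. In barcodes of up to 100 UMIs, Satb1 had 59.6 and 50.7 CPM in the WT tumours and 143 and 200 CPM in the IL1α-/- tumours. Tcrg-C4, any γ constant gene and Gpr183 were apart only after thinning, with the higher shares in the IL1α-/- tumours. Gaps of this kind are common: on summed counts, 43.5% of all genes tested had groups that do not overlap. Nothing is therefore read from the count of 6 of 13, and these genes are taken up again in the fit across all genes.

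Host genotype was then tested on the UMI counts of the selected γδ cells summed per tumour (85679 to 444356 UMIs), by the quasi-likelihood test of edgeR, adjusted by Benjamini-Hochberg. Of 3943 genes tested, 47 (1.19%) passed an adjusted p of 0.05: 35 (0.888%) were higher and 12 (0.304%) lower in IL1α-/- hosts. Dgat1, Crem, Fosl2 and Rora were among the genes that rose in the IL1α-/- hosts, and the carbonic anhydrase gene Car2, Eomes, the survival gene Bcl2 and the lymphotoxin gene Ltb were among those that fell. Groups that do not overlap were no distinction, as 43.5% of all genes tested had them. With same-numbered tumours, assumed to be pairs, as a replicate block, 172 genes (4.36%) passed, including all 47. With DESeq2 31 passed, of which 16 were among the 47. None of the 47 is a gene of the selection rule; 2 are ribosomal protein genes, 1 is mitochondrial and 1 is an unnamed gene model. Levels below are scaled CPM, which are CPM after TMM scaling of the library sizes, in the order WT 1, WT 2, IL1α-/- 1, IL1α-/- 2.

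Dgat1 (chr15:76502015-76511953), which makes triglyceride, had 58.1, 55.3, 440 and 253 scaled CPM. It was the gene with the smallest p, higher by 2.47 ± 0.33 (log2 fold change ± SE; edgeR adjusted p = 0.00284), and was detected in 9, 17, 23 and 43 cells. Gpr132, a receptor for lipids and lactate, had 98.4, 57.9, 276 and 316, higher by 2.03 ± 0.30 (adjusted p = 0.00561). Crem, a cAMP-response factor, had 143, 80.5, 352 and 417, higher by 1.88 ± 0.29 (adjusted p = 0.0060). Both IL1α-/- values lay well above both WT values for these 3 genes, and all 3 passed under each of the 17 alternatives that gave them an adjusted p. Fosl2, an AP-1 subunit, had 326, 231, 754 and 792, higher by 1.50 ± 0.25 (adjusted p = 0.00722).

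Rora (chr9:68653786-69388246), the gene of RORα, had 183, 98.1, 402 and 599 scaled CPM, higher by 1.96 ± 0.31 (adjusted p = 0.0060). It belongs to the type 17 list but was not a gene of that subset alone: with the type 17 cells left out it was higher by 2.57 (edgeR adjusted p = 1.04e-04). In the cells with a γ constant UMI it did not pass (1.67, adjusted p = 0.0546). Ramp3, a partner of calcitonin-family receptors, had 26.8, 17.6, 126 and 134, higher by 2.61 ± 0.43 (adjusted p = 0.0068). Ramp1, a related partner that forms the receptor of the neuropeptide CGRP, moved the other way, with 259, 247, 75.4 and 93.0, lower by -1.51 ± 0.29 (adjusted p = 0.0221). Samd11 rested on few transcripts, 1, 1, 11 and 20 UMIs, and was higher by 4.64 ± 0.74 (adjusted p = 0.0060). Gramd3, Lilr4b and Slc37a3 were higher by 1.53, 2.53 and 3.51; Lilr4b has a near-identical neighbour, so its count is uncertain.

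Car2 (chr3:14886273-14900770) had 139, 176, 37.7 and 11.2 scaled CPM, lower by -3.15 ± 0.50 (adjusted p = 0.0060), and was detected in 12, 27, 2 and 2 cells. Eomes (chr9:118478212-118486132) had 282, 325, 151 and 96.7, lower by -1.44 ± 0.30 (adjusted p = 0.0281), in 31, 50, 8 and 15 cells. The fall of Eomes did not pass in the cells with a γ constant UMI (-0.96, adjusted p = 0.334), in those without Ncr1 and Klrb1c (-1.03, adjusted p = 0.262), by DESeq2 (adjusted p = 0.103), or in 3 of the 4 fits that each left out 1 tumour. Bcl2 had 577, 652, 339 and 186, lower by -1.37 ± 0.29 (adjusted p = 0.0315). Ltb had 1284, 1235, 540 and 658, lower by -1.04 ± 0.22 (adjusted p = 0.0333). The WT values of Ltb lay close together and both above the IL1α-/- values.

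Hspa1b, an inducible heat shock protein gene with a near-identical copy, had 13 and 23 UMIs in the WT tumours and 0 in both IL1α-/- tumours, at least 6.75-fold lower (adjusted p = 0.0221; floor of 3 UMIs over the group). Cotl1 and Capg, both of the actin cytoskeleton, were lower by -1.16 and -1.42, and the transcription factor gene Scand1 and the vesicle transport gene Trappc4 by -1.21 and -1.72 (adjusted p 0.0333 to 0.0438). Scand1 (chr2:156311847-156312704) lies on chromosome 2, as Il1a does (chr2:129299610-129309972). Whether this bears on its level was not tested. Each of the 10 lower genes kept its direction but lost its call in at least 1 fit without a tumour.

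Calls among the named genes were lost without 3 of the 4 tumours. Each such fit leaves 1 group with a single tumour, which is assumed to vary like the pair in the other group. Some log2 fold changes hardly moved (Trappc4 from -1.85 to -1.71, Ramp1 from -1.78 to -1.45), while Bcl2 came to -0.90 and Car2 to -2.11 without IL1α-/- 2. Without IL1α-/- 2, edgeR gave Car2 an adjusted p of 0.0947, Hspa1b 0.187, Eomes 0.288, Bcl2 0.259, Cotl1 0.147, Scand1 0.0745, Capg 0.115 and Trappc4 0.243. Of the 10 higher genes, Ramp3 (0.112) and Lilr4b (0.359) lost their call without it. Without WT 1, the call was lost for Ramp1 (0.0882), Hspa1b (0.0874), Eomes (0.0796), Bcl2 (0.0705), Ltb (0.107), Cotl1 (0.106), Scand1 (0.160), Capg (0.130) and Trappc4 (0.0739). Without WT 2 it was lost for Gramd3 (0.0770), Eomes (0.106), Cotl1 (0.0577), Scand1 (0.0981) and Capg (0.0569). No call among these 20 genes was lost without IL1α-/- 1, the library with the fewest UMIs. In the cells with a γ constant UMI, 6 of the 10 higher genes passed by edgeR, and 0 of the 8 lower genes tested there; all 18 kept their direction.

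**Figure D4:**
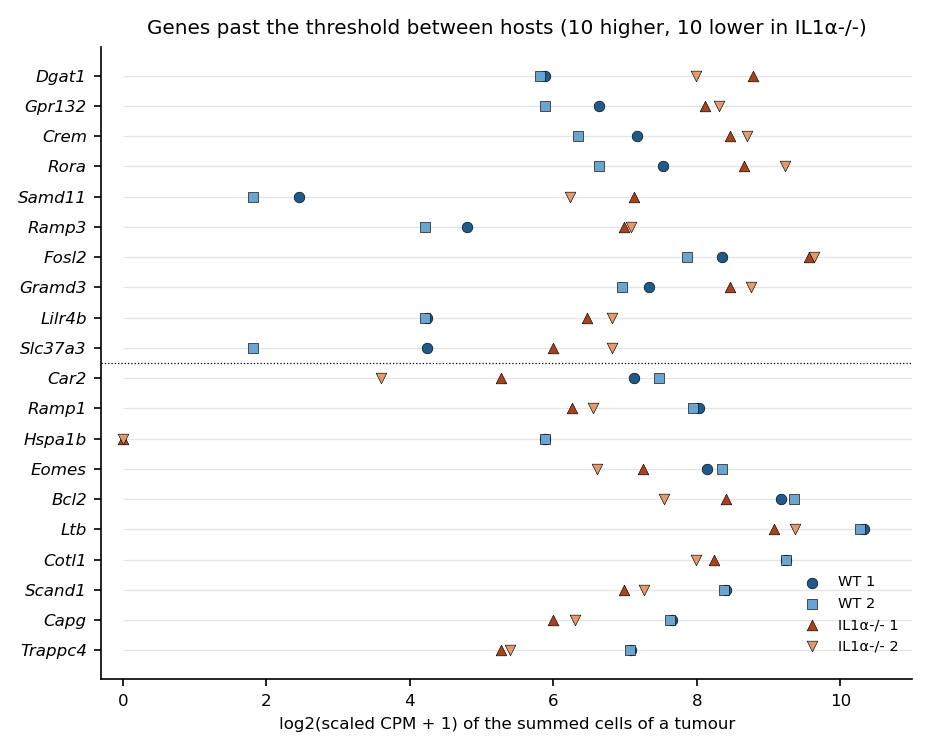
Level of the 10 higher and 10 lower named genes in the selected γδ cells of each tumour, as log2(scaled CPM + 1) of the summed cells; blue marks are WT and orange marks IL1α-/- tumours. Both IL1α-/- marks lie to the right of both WT marks for the upper 10 genes, from Dgat1 to Slc37a3, and to the left for the lower 10, from Car2 to Trappc4.

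By function, few genes of any pathway list passed, and the counts are read beside the 1.19% of all genes and a median log2 fold change of -0.0173 over all genes tested. Of 17 type 17 genes tested, Rora and Icos were higher and Ramp1 lower, with a median of 0.37. Icos had 228, 108, 402 and 454 scaled CPM, higher by 1.44 ± 0.31 (edgeR adjusted p = 0.0333; 0.427 without WT 2). The effector genes of that list did not pass, Il17a at a log2 fold change of -0.58 (adjusted p = 0.591) and Cd163l1 at 0.60 (adjusted p = 0.514). Of 18 type 1 genes tested, Eomes alone passed, and the median was 0.33. Of 10 natural killer genes tested, 9 had a log2 fold change below 0, with a median of -0.86 and Eomes as the single call. The replicate block, which called 4.36% of all genes, called 4 type 1 genes (2 higher, 2 lower) and 5 natural killer genes, all 5 lower, among them Tyrobp, a signalling adaptor, at -1.07 (adjusted p = 0.00138), and Prf1, the gene of perforin, at -1.29 (adjusted p = 0.00714). Of 8 residence genes, Car2 alone passed, and 3 did with the block.

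The interleukin 1 and 18 family gave 1 call among 5 genes tested. Irak2, a kinase of interleukin 1 and Toll-like receptor signalling, had 31.3, 35.2, 126 and 138 scaled CPM, higher in the IL1α-/- hosts by 1.97 ± 0.39 (edgeR adjusted p = 0.0221; 0.0533 without WT 1 and 0.226 without IL1α-/- 2). Il1r1 had 17.9, 30.2, 87.9 and 63.2, which did not overlap between hosts, but its log2 fold change of 1.43 ± 0.50 did not pass (adjusted p = 0.204). Il18r1 (0.68, adjusted p = 0.235) and Il18rap (0.87, adjusted p = 0.131) did not pass either; with the block Il18rap did (0.88, adjusted p = 0.0495) and Il1r1 did not (1.45, adjusted p = 0.179). The family's median was 0.87, with 4 of 5 genes above 0. None of 12 tested NF-κB genes passed, and 1 had an unadjusted p under 0.05, beside 12.2% of all genes tested; the median was 0.15. With the block 1 passed, Tnfaip3, an inhibitor of NF-κB, at 0.91 (adjusted p = 0.00648).

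Immediate early genes, which answer recent stimulation, gave 3 calls among 20 tested. Fosl2 and Dusp1, a phosphatase of MAP kinases, were higher and Hspa1b lower. Dusp1 had 161, 143, 276 and 510 scaled CPM, higher by 1.48 ± 0.29 (edgeR adjusted p = 0.0221). Its call was lost without WT 1 (adjusted p = 0.0928), WT 2 (0.0511) or IL1α-/- 2 (0.408). The list's median was 0.53, with 15 of 20 above 0, and Fos, Junb and Nr4a2 had log2 fold changes of 1.13, 0.85 and 1.02 that did not pass (adjusted p 0.0990, 0.109 and 0.0534). The replicate block called 9 of the 20, 8 of them higher, beside its 4.36% of all genes, with Fos at 1.05 (adjusted p = 0.00798), Junb at 0.89 (adjusted p = 4.26e-05) and Nr4a2 at 1.01 (adjusted p = 0.00357). Of 11 interferon-response genes, Irf1 alone passed, with 121, 164, 327 and 312, higher by 1.12 ± 0.26 (edgeR adjusted p = 0.0485). That call was lost without WT 1 (adjusted p = 0.330), WT 2 (0.0790) or IL1α-/- 2 (0.130). The block called 2 interferon-response genes.

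No circulation gene passed among 12 tested, with a median of 0.30 and 3 at an unadjusted p under 0.05, and no chemokine receptor among 8, with 1. Satb1 had 434, 352, 867 and 703 scaled CPM, a log2 fold change of 0.98 that missed the threshold (adjusted p = 0.0587), and Gpr183 215, 143, 289 and 387 (1.01, adjusted p = 0.0990). With the replicate block 3 of the 12 circulation genes passed, again beside 4.36% of all genes, all higher: Satb1 (1.00, adjusted p = 0.00101), Gpr183 (1.03, adjusted p = 0.00645), which is also the 1 chemokine receptor then called, and Il7r (0.80, adjusted p = 0.0122). Satb1 passed in 10 of 18 alternatives, the block included, and changed sign in 1, and Gpr183 passed in 5 of 18. Of 5 γδ receptor genes tested none passed, although all 5 had a log2 fold change above 0; Trdv4, with 67.1, 37.7, 176 and 115, had 1.43 (adjusted p = 0.110; with the block 1.50, 0.00647) and Tcrg-C4 0.34 (adjusted p = 0.658). A threshold missed with 2 tumours a group does not show that levels were alike. No fibroblast, tumour epithelium, neutrophil or red cell marker reached the tested set.

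Whether the host effect itself differed from that in other T cells was tested as a difference of host effects over the summed cells of both classes in the same tumours. Of the 47 genes, 1 differed from the Gzmc/Xcl1-positive γδ cells and 7 from the Trdc-negative T cells at an adjusted p of 0.05, beside 0.756% and 1.76% of all genes in these tests. Before adjustment 9 and 19 did so, beside 6.13% and 8.12%. The 47 were chosen for a host effect in the same sums, which favours a difference, so nothing is read from these counts. Rora was higher in IL1α-/- hosts by 1.08 ± 0.27 log2 units more than in the Trdc-negative T cells (edgeR adjusted p = 0.00664), where it had 199, 141, 173 and 406 scaled CPM. Dusp1, Samd11, Slc37a3 and Cebpz also rose more in the selected γδ cells, by 1.14, 3.09, 2.64 and 1.18. With the replicate block Dusp1 (adjusted p = 0.0556) and Cebpz (0.0832) did not pass. Each of the 7 lost its call in at least 1 fit without a tumour, Rora without WT 2 (adjusted p = 0.629). Trappc4 was lower by -1.66 more, and Vps37b, an ESCRT gene, rose less, by -0.68. For Dgat1 the difference from the Trdc-negative T cells was 0.60 ± 0.34 (adjusted p = 0.700) and for Crem 0.50 ± 0.28 (adjusted p = 0.702). Dgat1 had 74.1, 53.1, 203 and 232 scaled CPM in those cells.

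Over all genes, 166 of 9430 (1.76%) differed in host effect from the Trdc-negative T cells by edgeR, and 113 with the replicate block. Leading them were Ccl5 and the stromal genes Col3a1, Col1a2, Col1a1 and Gsn, which rested on the few barcodes with fibroblast RNA named above. With barcodes of 3 or more fibroblast or epithelial UMIs left out of both classes, 56 of 8948 genes differed. That alternative was chosen after the data were seen, and so were the genes named from it here. Ccl5 and Prf1 had the smallest p there.

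Ccl5, a chemokine of T and natural killer cells, had 2567, 1789, 2731 and 3248 CPM in the selected γδ cells and 979, 1192, 13805 and 7492 in the Trdc-negative T cells. It was many times higher in the Trdc-negative T cells of the IL1α-/- tumours, while it stayed between 1789 and 3248 CPM in the selected γδ cells. The difference of host effects was -2.80 ± 0.11, or -2.66 ± 0.11 without the barcodes with stromal RNA (edgeR adjusted p = 9.28e-134; DESeq2 adjusted p = 0.0144 on all barcodes). It kept its direction and stayed past the threshold in 14 of 14 alternatives, from -3.45 to -2.26. The very small p rests on a spread shared across genes between the 8 sums of 4 tumours.

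Other effector genes differed in the same direction with those barcodes left out. Nkg7 had 677, 965, 712 and 729 CPM in the selected γδ cells against 472, 832, 1573 and 1094, a difference of host effects of -1.17 ± 0.16 (edgeR adjusted p = 3.74e-10). Prf1 had 74.3, 286, 140 and 59.9 CPM against 39.6, 67.4, 180 and 147, a difference of -2.73 ± 0.32 (adjusted p = 6.93e-14). Il7r ran the other way, with 710, 358, 619 and 1082 CPM against 645, 362, 236 and 364, a difference of 1.51 ± 0.18 (adjusted p = 2.91e-13). Prf1 and Nkg7 were thus higher in both IL1α-/- tumours than in both WT tumours among the Trdc-negative T cells, and not among the selected γδ cells. The mix of cell types within the Trdc-negative T cells can differ between tumours, and its part in these values was not tested.

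**Figure D5:**
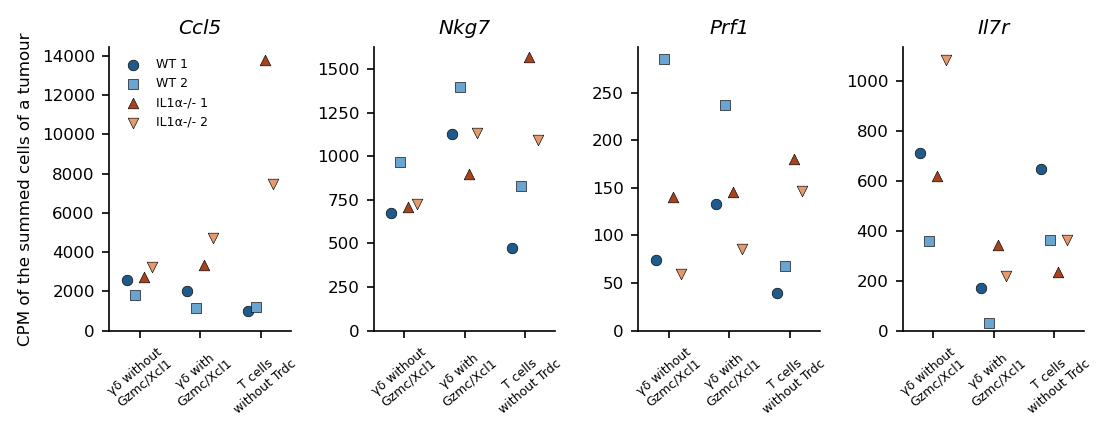
CPM of Ccl5, Nkg7, Prf1 and Il7r in the summed cells of each tumour, for the selected γδ cells, the Gzmc/Xcl1-positive γδ cells and the Trdc-negative T cells; each mark is 1 tumour. Ccl5 reaches 13805 and 7492 CPM in the Trdc-negative T cells of the IL1α-/- tumours and stays between 1789 and 3248 in the selected γδ cells.

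Against the Gzmc/Xcl1-positive γδ cells, 35 of 4630 genes (0.756%) differed in host effect, the first 5 being the stromal genes Col1a2, Col3a1, Col1a1, Sparc and Postn. Without the barcodes with stromal or epithelial RNA, 7 of 4442 differed, among them Ccl5 (-0.86 ± 0.11, edgeR adjusted p = 2.81e-08), the chemokine receptor Cxcr4 (-1.27 ± 0.26, adjusted p = 0.0037) and Gzmb, the gene of granzyme B (2.02 ± 0.48, adjusted p = 0.0265). Ccl5 had 2028, 1176, 3337 and 4727 CPM in the Gzmc/Xcl1-positive γδ cells. No gene differed by DESeq2 (35 at an unadjusted p under 0.05), and none when WT 2 or IL1α-/- 2 was left out (157 and 384). The replicate block gave Cxcr4 an adjusted p of 0.0531 by edgeR on all barcodes. Of 29 genes of the type 17 list, 19 had a higher CPM in the selected γδ cells than in the Gzmc/Xcl1-positive γδ cells in all 4 tumours, 4 in 3 tumours and 6 in fewer, among them Jaml, an adhesion molecule, in 1. Cd163l1 had 186, 99.0, 105 and 250 CPM in the selected γδ cells and a level above 0 only in WT 2 of the Gzmc/Xcl1-positive γδ cells, at 4.2 CPM. A count of 0 allows up to 3.99, 73.1 and 12.3 CPM in the other 3 tumours of that class.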

How the data were processed

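Single-cell RNA was measured in 4 tumours, 2 from WT and 2 from IL1α-/- hosts. The deposited values are raw UMI counts per gene and barcode, made with Cell Ranger 3.1.0 against mm10, per the submitters' processing notes; the file headers name features of a combined human and mouse reference, of which mouse features were used and human UMIs were 0.005% to 0.008% of the total. The authors' files hold no cell calls, so a barcode was called a cell from 500 UMIs and 250 genes up, unless over 20% of its UMIs were mitochondrial. Scrublet scores (scanpy 1.11.5) marked 3 of the selected cells as possible doublets, which were kept. Empty droplets were not tested for beyond these limits.

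Counts were summed per tumour and class and tested with edgeR 4.0.16 in R 4.3.3 (filterByExpr, TMM scaling, quasi-likelihood test, Benjamini-Hochberg threshold 0.05), with host as the only term, or sample, class and host by class for differences of host effects. DESeq2 1.42.0, other filters, gates and scalings, a block on the pair and each tumour left out were alternatives. Standard errors come from the F statistic. Shares other than the split of the γδ gate were compared with exact permutation tests over 6 assignments (scipy 1.17.1). Shares carry 95% Clopper-Pearson intervals. Scripts were tested on simulated data. The labels state that pairs were collected on separate days, but not that equal replicate numbers form a pair. Same-numbered tumours were assumed to be the pairs. The correlation of their deviations was 0.0149, which gives the assumption no backing, so the replicate block is an alternative only.

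The rule for named genes took the markers, the fixed lists, the 10 higher and 10 lower host-test genes with the smallest p, an adjusted p under 0.05, groups that do not overlap and a mean of at least 20 CPM, and the 5 genes with the smallest p in each difference test. The selected cells and the lists were chosen with earlier results of these data known. Of the listed genes, 6 symbols did not match a feature. Positions are 1-based. Some genes of the fixed lists are not reported here, and the lists and cell states were computed without them.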

Additional observations from a re-analysis of the deposited data

Results flagged for a closer look

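The difference of host effects between the selected γδ cells and another class passed an adjusted p of 0.05 by edgeR for the genes below, which are the 5 with the smallest p in each test. Against the Gzmc/Xcl1-positive γδ cells these were Col1a2 (5.81 log2 units), Col3a1 (5.49), Col1a1 (6.05), Sparc (5.45) and Postn (7.62). Against the Trdc-negative T cells they were Ccl5 (-2.80), Col3a1 (5.30), Col1a2 (5.29), Col1a1 (5.67) and Gsn (6.06). The collagens, Sparc, Postn and Gsn are genes of stromal cells. Of the 209 Col1a2 UMIs in the selected γδ cells, 127 (60.8%) lay in 1 barcode of IL1α-/- 2, and for Gsn this was 138 of 191 (72.3%). Col1a2 had 12.4, 18.0, 0 and 659 CPM in the selected γδ cells and 9.3, 1300, 24.4 and 590 CPM in the Gzmc/Xcl1-positive γδ cells. Ccl5 is described in the report.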

How the results depend on the processing

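Among 776 recomputed values for named genes, 591 kept direction and side of the threshold, 159 kept direction and lost their call, 15 kept direction and gained one and 11 changed sign. The cause was not tested unless stated. Thinning to 1000 UMIs before the gate turned the difference in share of called cells (0.294) to -0.326, of cells with a circulation gene (-18.4) to 1.65 and of cells with Tcrg-C4 (-4.05) to 6.73 points. Requiring Trac, Trbc1 and Trbc2 at 0 turned the share of Cd3 cells (-1.17) to 0.556. With each tumour left out, ranges were -0.312 to 0.901 for the share of called cells, -2.71 to 12.4 for a type 17 gene and -8.31 to 0.211 for Tcrg-C4. The 47 host calls became 99 at 10% mitochondrial UMIs, 76 at 2 Trdc UMIs, 102 without Trac, 75 without type 17 cells, 98 without stromal or epithelial RNA, 175 without a low-count filter (where the median of all genes shifted to -0.12), 172 with the replicate block, 31 by DESeq2, 8 with a γ constant UMI and 0 of 282 genes tested without αβ constant genes (42 at an unadjusted p under 0.05), and 57 to 136 with a tumour left out (136 without IL1α-/- 1). The 35 calls against the Gzmc/Xcl1-positive γδ cells became 22 without doublets, 20 at 2 Trdc UMIs, 7 without stromal or epithelial RNA, 0 by DESeq2 (35 at an unadjusted p under 0.05), 0 without αβ constant genes (9) and 0 to 52 with a tumour left out; the block gave 30. The 166 against the Trdc-negative T cells became 100, 90, 56, 9 (DESeq2) and 5 (no αβ constant genes) in that order of settings, and 31 to 194 with a tumour left out (84 without WT 1, 64 without WT 2, 31 without IL1α-/- 2). Without αβ constant genes the host effect on Satb1 was -0.26. Against the Gzmc/Xcl1-positive γδ cells, Col1a2 ran from -0.52 (without IL1α-/- 2; -0.25 without WT 2) to 6.29 with a tumour left out, Cxcr4 was 0.035 without αβ constant genes, and Sparc from -0.67 (without WT 2) to 5.81. Against the Trdc-negative T cells, Col3a1 was -0.27 and Col1a1 -0.56 without stromal RNA, Col1a2 -6.78 and Gsn -0.52 without αβ constant genes, and with a tumour left out Col1a2 ran from -6.33 to 5.71 and Gsn from -7.14 to 7.16, both lowest without IL1α-/- 2; fewer cells with stromal RNA enter these settings. The alternatives on Trac, on γ constant genes, on Ncr1 and Klrb1c, on type 17 cells and on stromal RNA were added after the data were seen. Depth limits the shallowest library, IL1α-/- 1, where the summed selected γδ cells held 85679 UMIs and 3 UMIs stand for 35.0 CPM.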
